A study of Mus musculus with 14 samples.

Results

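CREB and cAMP-induced genes are described here as a set of 10: Rgs2, Crem, Nr4a1, Nr4a2, Nr4a3, Sik1, Ppargc1a, Crtc3, Pck1 and Areg. They were chosen by their symbol in the deposited gene table, and all 10 were found among its 49671 genes. RNA sequencing covered 14 libraries of C2C12, an established mouse line of skeletal muscle myoblasts, in 7 groups of 2 libraries. Growing cells in 20% fetal calf serum (FCS) were sampled at day 0. The other groups stood for 2 or 7 days in 1 of 3 media, renewed every other day: DM1 with 2% horse serum, DM2 with 10% FCS and a cocktail, and DM3 with 2% horse serum and the same cocktail. The cocktail was 1 µg/ml insulin, 0.5 mM IBMX, 0.5 µM dexamethasone and 2 µM rosiglitazone, so IBMX was present only in DM2 and DM3, and never without the other 3 agents. The labels number the replicates without saying that they were separate cultures, so p-values here cover only library-to-library spread, and that spread could be technical. The hours between the last medium change and sampling were not given in the sources used here.

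Cyclic AMP is made by adenylyl cyclases under receptors coupled to Gs, and is broken down by phosphodiesterases, the enzymes that IBMX blocks. It frees the catalytic subunits of protein kinase A, which phosphorylate the transcription factor CREB, while coactivators of the CRTC family enter the nucleus once salt-inducible kinases no longer hold them back. Many direct targets are brief, early-response genes, and several, such as Rgs2, Sik1 and Crem, feed back on the signal. In muscle the pathway is known for its action on metabolism and on Mef2 factors through class IIa histone deacetylases.

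CREB binds the palindrome TGACGTCA or its 5-base core TGACG, which reads CGTCA when it lies on the other strand, so the promoters of 4 members are shown with these letters in capitals. RefSeq windows on GRCm38.p6, 250 bases before to 50 after a start, were matched for 8 members, all but Crem and Sik1. Rgs2 is shown for its 2 core matches and its large rise, Nr4a1 for its 4 matches and its change of direction between days, Areg for the full palindrome beside a fall, and Pck1 as a well known CREB target that was not detected here. Each run holds the 250 bases before the start, 5′ to 3′ on the gene's strand, and the Nr4a1 window precedes a start that lies inside the gene's Gencode span.
Rgs2, chr1:144004150-144004399, minus strand: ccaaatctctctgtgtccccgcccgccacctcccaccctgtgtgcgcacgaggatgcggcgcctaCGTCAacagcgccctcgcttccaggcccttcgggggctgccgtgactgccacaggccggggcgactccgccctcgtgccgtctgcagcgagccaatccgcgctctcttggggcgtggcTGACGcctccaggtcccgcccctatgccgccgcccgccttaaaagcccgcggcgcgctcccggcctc
Nr4a1, chr15:101266596-101266845, plus strand: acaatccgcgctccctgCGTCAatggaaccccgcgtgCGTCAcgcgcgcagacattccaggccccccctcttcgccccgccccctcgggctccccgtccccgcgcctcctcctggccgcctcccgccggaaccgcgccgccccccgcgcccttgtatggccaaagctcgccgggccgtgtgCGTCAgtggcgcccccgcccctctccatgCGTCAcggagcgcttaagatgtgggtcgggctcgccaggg
Areg, chr5:91139349-91139598, plus strand: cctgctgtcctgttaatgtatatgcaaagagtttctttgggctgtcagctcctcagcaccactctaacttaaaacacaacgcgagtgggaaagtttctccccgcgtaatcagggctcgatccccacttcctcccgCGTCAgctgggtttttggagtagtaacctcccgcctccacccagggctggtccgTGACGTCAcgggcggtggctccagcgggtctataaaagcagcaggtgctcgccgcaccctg
Pck1, chr2:173152823-173153072, plus strand: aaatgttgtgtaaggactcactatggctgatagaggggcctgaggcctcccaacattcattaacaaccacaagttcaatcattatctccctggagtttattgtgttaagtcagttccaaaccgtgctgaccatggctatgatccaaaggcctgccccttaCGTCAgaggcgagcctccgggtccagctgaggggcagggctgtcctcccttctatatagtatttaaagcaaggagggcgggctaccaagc
In Areg the palindrome begins 61 bases before the start and holds 2 of its 3 core matches. Nr4a2 and Nr4a3 had 4 core matches each, Ppargc1a 1 and Crtc3 0. Of 32851 RefSeq windows of the same 300 bases, 20.8% held the core on either strand, 1.03% held 3 or more matches and 1.79% held the palindrome. A match describes letters only, and it is no test of members that are known as CREB targets.

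Libraries held 21907617 to 29784885 expected counts. The muscle markers Myod1 (137 CPM, counts scaled to 1000000 per library) and Des (863 CPM) were present at day 0, while Pax7 stayed under 1 CPM in all groups. The summed level of 9 muscle markers was 974 to 2157 CPM in 6 groups and 19658 to 20618 CPM in DM3 at day 7. In those 6 groups Des was its largest part, at 469 to 1149 CPM as a group mean. Other markers changed under that sum. Acta1 went from 3.52 CPM at day 0 to 492 CPM in DM1 and 245 CPM in DM2 at day 7. Myh3 went from 0.570 to 144 and 80.6 CPM, and Myog from 1.81 to 47.2 and 32.1 CPM. Myod1 fell from 137 to 33.1 and 18.3 CPM. The summed level of 8 adipocyte markers was 13.1 to 28.5 CPM, most of it Pparg, at 11.0 to 23.6 CPM as a group mean. Fabp4 went from 0.415 CPM at day 0 to 6.74 CPM in DM2 at day 7, where Plin1 stood at 0.917 and Cidec at 0.538 CPM. Lep was at 0 in all libraries and Adipoq at no more than 0.247 CPM as a group mean. Summed leukocyte and endothelial markers did not pass 6.85 and 4.16 CPM. Replicate 2 of DM3 at day 2 stood apart: 0.584% of its counts were in processed pseudogenes, it had the fewest genes with a count (17779), and the rank correlation with its replicate was 0.962, the lowest of the 7 groups. Replicate 1 of day 0 and of DM1 at day 2 also had lower pseudogene shares than their partners.

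Of the 10 members, 9 passed the low-count filter and were tested. Pck1 did not. A member was called higher or lower at a Benjamini-Hochberg adjusted p under 0.05 over the 15973 genes tested with edgeR's quasi-likelihood test. Log2 fold changes are given ± SE.

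**Figure D1:**
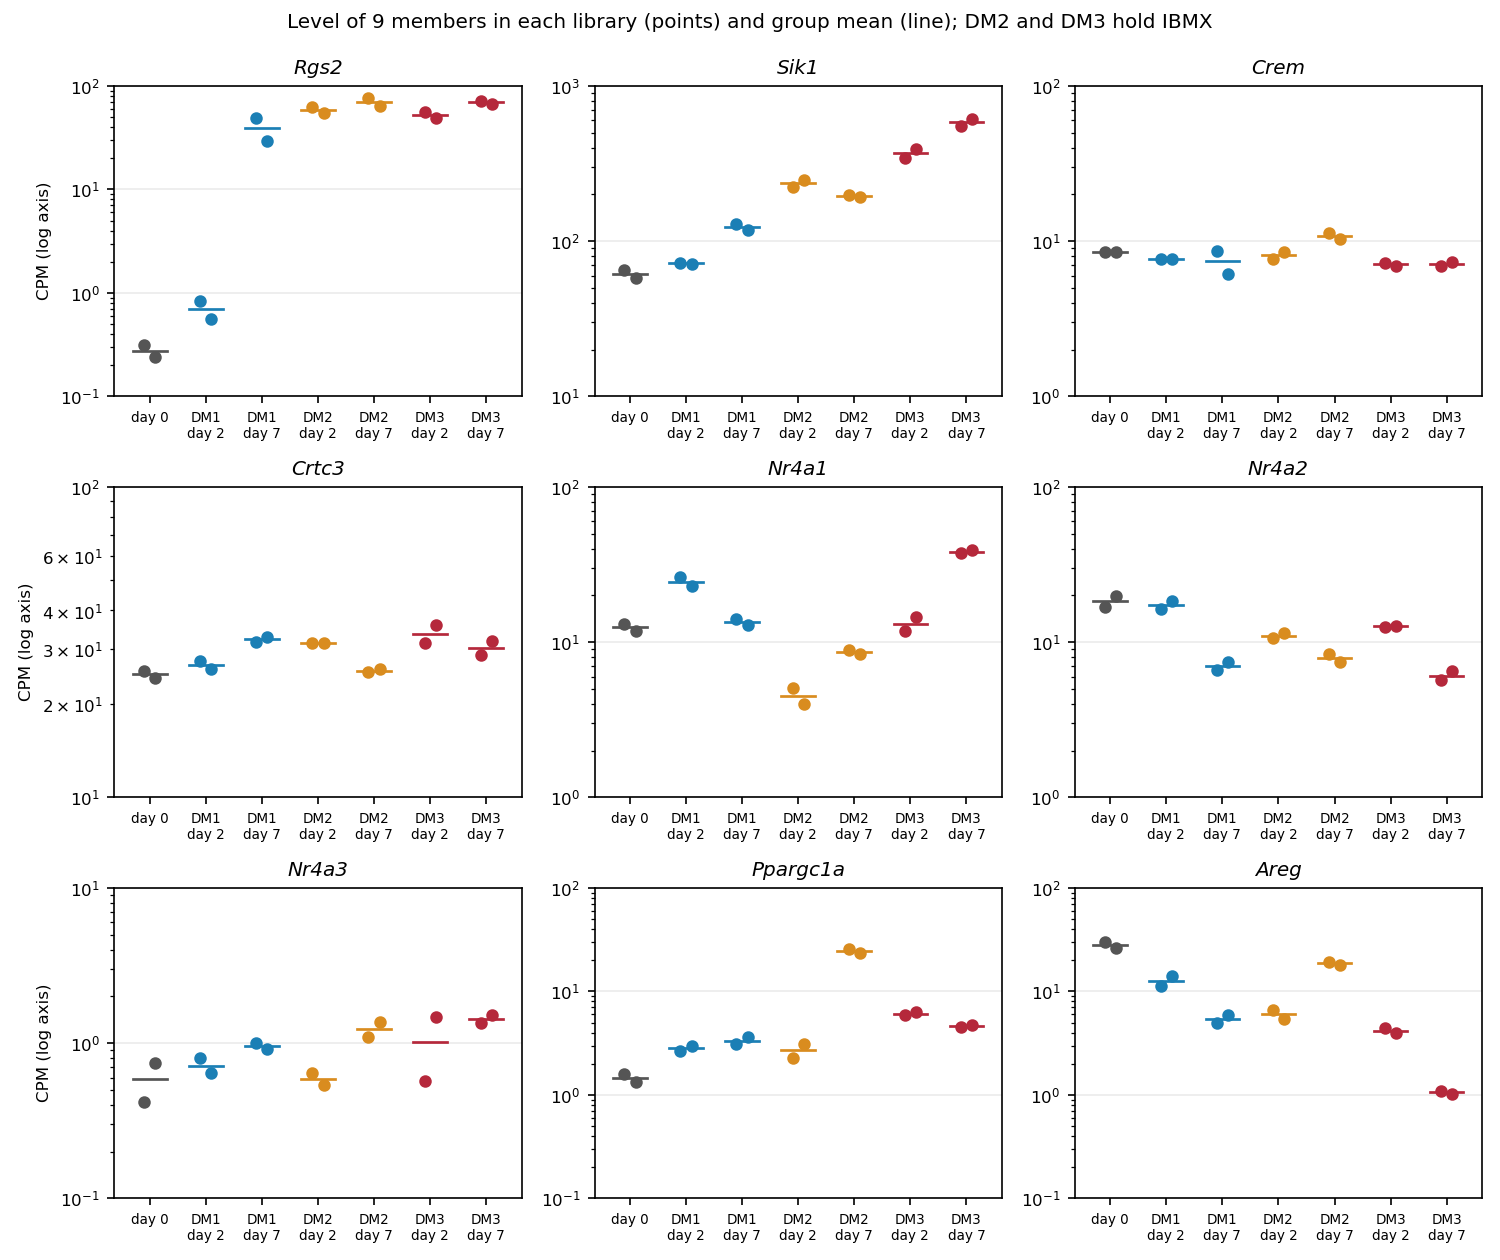
Level of 9 members in CPM (y axis, log scale) in each library (points) of the 7 groups (x axis), with the group mean as a line. Rgs2 lies under 1 CPM in growing cells and in DM1 of day 2, and at 29.2 CPM or more elsewhere, and Sik1 is higher in each library of DM2 and DM3 than in each of the other groups.

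Rgs2 (ENSMUSG00000026360, GRCm38 chromosome 1, 143999338 to 144004161), which shortens signalling by G proteins, moved the most. It was almost silent in growing cells and after 2 days of DM1, and stood at 29.2 CPM or more in each library of the 5 other groups. Day 0 libraries held 0.314 and 0.238 CPM, from 9 and 7 counts, and DM1 libraries of day 2 held 0.840 and 0.563 CPM, from 20 and 15 counts. DM1 at day 7, without IBMX in the medium, reached 49.3 and 29.2 CPM. Levels were 62.8 and 54.9 CPM in DM2 at day 2, and 76.9 and 64.5 CPM at day 7. In DM3 they were 56.7 and 48.8 CPM at day 2, and 72.4 and 66.8 CPM at day 7. In the order of means, the 5 high groups overlapped their neighbours, except that both DM3 libraries of day 7 lay above both DM2 libraries of day 2.

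Over day 0, Rgs2 rose by log2 7.13 ± 0.34 in DM1 at day 7, and by 7.55 ± 0.34 to 7.98 ± 0.34 in the 4 groups with cocktail. After 2 days in DM1 its difference from day 0 was log2 1.32 ± 0.49 (edgeR adjusted p = 0.0713, and 0.0214 with DESeq2). The cocktail at equal serum (DM3 against DM1) went with a 75.3-fold higher level at day 2 (log2 6.24 ± 0.31, edgeR adjusted p = 3.9e-07) and a 1.77-fold higher one at day 7 (log2 0.82 ± 0.21, edgeR adjusted p = 0.00949). Between the days, Rgs2 rose 56.1-fold in DM1. It was log2 0.27 ± 0.21 higher in DM2 and 0.40 ± 0.21 in DM3, neither of them called. Serum made no called difference under the cocktail: DM3 minus DM2 was log2 -0.16 (95% interval -0.66 to 0.34) at day 2 and -0.02 (-0.52 to 0.48) at day 7. The day 7 call against DM1 was lost without replicate 1 of DM3 (edgeR adjusted p = 0.0568) and when only the groups compared were fitted (0.0694). In bulk RNA, fewer cells with a transcript and less transcript per cell cannot be told apart, here and below.

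Sik1 (ENSMUSG00000024042, chromosome 17, 31844250 to 31855804), a salt-inducible kinase that retains CRTC coactivators in the cytoplasm and is itself a CREB target, separated the media. Day 0 libraries stood at 65.3 and 57.8 CPM, and those of DM1 at 72.6 and 71.1 CPM on day 2 and 129 and 119 CPM on day 7. DM2 gave 223 and 248 CPM on day 2, and 200 and 194 CPM on day 7. DM3 gave 346 and 394 CPM on day 2, and 554 and 612 CPM on day 7. No neighbouring groups overlapped in the order from day 0 up to DM3 at day 7, a 9.47-fold span. With 2 libraries a group, such gaps are no test of each step. The lowest step, DM1 at day 2 over day 0, was not called (log2 0.22 ± 0.10, edgeR adjusted p = 0.115). It was called in 3 of 13 alternatives. Sik1 was the only member whose 8 libraries with IBMX (194 to 612 CPM) all lay above the 6 without (57.8 to 129 CPM). Of all genes tested, 1.92% lay above in this way and 3.4% below. For Rgs2 the ranges just met, with 48.8 CPM as the lowest library with IBMX and 49.3 CPM as the highest without.

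DM3 exceeded DM1 in Sik1 by nearly the same amount on both days: log2 2.37 ± 0.10 at day 2 (edgeR adjusted p = 2.5e-08) and 2.24 ± 0.10 at day 7 (1.2e-08). The change of that difference was log2 -0.13 (95% interval -0.45 to 0.20). Under the same cocktail, Sik1 was higher in 2% horse serum (DM3) than in 10% FCS (DM2), 1.57-fold at day 2 and 2.96-fold at day 7. From day 2 to day 7 it rose by log2 0.78 ± 0.10 in DM1 and 0.66 ± 0.10 in DM3, and fell by 0.26 on the log2 scale in DM2. The summed muscle markers were also highest in DM3 at day 7, and their part in the Sik1 level was not tested. The fall in DM2 kept its call in 5 of 12 alternatives. It was lost without either replicate of day 7 or replicate 2 of day 2 (log2 -0.28 to -0.18). It was also lost with RLE factors (edgeR adjusted p = 0.0731), no low-count filter (0.137), only those groups fitted (0.0617) and DESeq2 (DESeq2 adjusted p = 0.0502). The day 2 difference from DM2 lost its call when only those groups were fitted (edgeR adjusted p = 0.0670).

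Among the members, the CREB family gene Crem and the coactivator gene Crtc3 moved least. Crem (ENSMUSG00000063889), which encodes both activators and, from an internal promoter, the short repressor ICER, held 6.18 to 11.3 CPM over all 14 libraries. Counts per gene cannot tell ICER from the longer forms. No comparison with day 0 was called: the differences ran from log2 -0.27 ± 0.15 in DM3 at day 2 to 0.35 ± 0.15 in DM2 at day 7 (edgeR adjusted p = 0.0682). That last difference was called with RLE factors (edgeR adjusted p = 0.0405) and when only those groups were fitted (0.0375). Crem was called lower than day 0 in DM3 at day 7 under library totals alone (log2 -0.47, edgeR adjusted p = 0.0207) and in DM1 at day 7 without its replicate 1 (log2 -0.47, 0.0221). DM3 minus DM1 was log2 -0.11 (95% interval -0.47 to 0.24) at day 2 and -0.06 (-0.41 to 0.30) at day 7. The DM2 libraries of day 7, at 11.3 and 10.3 CPM, lay above every other library. Crem was there 1.52-fold higher than in DM3 (edgeR adjusted p = 0.00489) and 1.34-fold higher than in DM2 at day 2 (0.0305), a call lost when any 1 of those 4 libraries was left out. The opposite strand carries Gm6225 over Crem, with 18 counts in all libraries together.

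Crtc3 (ENSMUSG00000030527, chromosome 7, 80586627 to 80688877), a coactivator that joins CREB on DNA, had the narrowest span of group means, 1.35-fold. Day 0 held 25.5 and 24.3 CPM, and the highest group, DM3 at day 2, 31.4 and 35.9 CPM. It rose over day 0 in DM1 at day 7 (log2 0.37 ± 0.09), DM2 at day 2 (0.34 ± 0.09), DM3 at day 2 (0.44 ± 0.09) and DM3 at day 7 (0.28 ± 0.09). Day 2 of DM3 exceeded DM1 by log2 0.33 ± 0.09 (edgeR adjusted p = 0.0110), and day 7 did not reach a call, at -0.09 (95% interval -0.30 to 0.12). The rise in DM1 at day 7 was called under each alternative run, while each of the other Crtc3 calls was lost in at least 1. Under library totals alone the DM3 minus DM1 difference at day 7 was log2 -0.33, with an edgeR adjusted p of 0.00569.

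The 3 NR4A genes encode orphan nuclear receptors of the immediate-early kind, and they did not move together. Nr4a1 (ENSMUSG00000023034, chromosome 15, 101254269 to 101274795) stood at 13.1 and 11.8 CPM at day 0 and rose to 26.2 and 23.0 CPM after 2 days in DM1. It was back at 14.2 and 12.9 CPM in DM1 on day 7. DM2 held 5.05 and 3.97 CPM at day 2 and 8.88 and 8.4 CPM at day 7, all below day 0. DM3 held 11.8 and 14.5 CPM at day 2, overlapping day 0 and DM1 of day 7, and 37.4 and 39.0 CPM at day 7, above each other library.

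Nr4a1 thus lay below DM1 in DM3 at day 2 (1.87-fold, log2 -0.90 ± 0.13, edgeR adjusted p = 2.5e-04) and above it at day 7 (2.82-fold, log2 1.49 ± 0.13, 2.5e-06). The difference itself changed between the days by log2 2.39 ± 0.19 (edgeR adjusted p = 3.5e-06). Against DM2, which has the same cocktail, DM3 was 2.92-fold higher at day 2 and 4.41-fold higher at day 7. Over day 0, Nr4a1 fell in DM2 by 1.47 on the log2 scale at day 2 and by 0.53 at day 7. It rose in DM1 at day 2 (log2 0.98 ± 0.13) and in DM3 at day 7 (1.62 ± 0.13). Each of the Nr4a1 calls was made again under each alternative run. Summed muscle markers were highest in the same DM3 libraries of day 7, and their part in this level was not tested.

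Nr4a2 (ENSMUSG00000026826, chromosome 2, 57106830 to 57124003) was highest at day 0, with 17.0 and 20.0 CPM, and in DM1 at day 2, with 16.3 and 18.5 CPM, and these 2 groups overlapped. All 3 media ended lower at day 7: 6.59 and 7.43 CPM in DM1, 8.36 and 7.43 CPM in DM2, and 5.66 and 6.49 CPM in DM3. The falls from day 0 were 2.63-fold, 2.34-fold and 3.04-fold (edgeR adjusted p = 4.6e-07 to 5.5e-06). At day 2 Nr4a2 was already lower in the groups with cocktail, at 10.6 and 11.4 CPM in DM2 and 12.5 and 12.7 CPM in DM3. DM3 fell below DM1 by 0.47 on the log2 scale there (edgeR adjusted p = 0.0126, and 0.114 without replicate 2 of DM1). At day 7 that difference was log2 -0.21 (95% interval -0.52 to 0.11). From day 2 to day 7 Nr4a2 fell 2.49-fold in DM1, 1.39-fold in DM2 and 2.08-fold in DM3, and the DM2 fall was not called without replicate 2 of either day (edgeR adjusted p = 0.0702 and 0.0502). DM3 lay 1.3-fold under DM2 at day 7 (0.0292), a call lost without replicate 1 of either medium (0.197 and 0.176).

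Nr4a3 (ENSMUSG00000028341, chromosome 4, 48045153 to 48086447) was near its limit of detection, with 12 to 41 counts a library. Its levels ran from 0.419 and 0.750 CPM at day 0 to 1.35 and 1.52 CPM in DM3 at day 7. That rise, log2 1.29 ± 0.44, was its only call (edgeR adjusted p = 0.0244) and was lost without replicate 1 of day 0 (0.171), without either DM3 replicate (0.0585 and 0.0945), with DESeq2 (0.0636), under library totals alone (0.0543) and with the 3 low-pseudogene libraries left out (0.0605). In DM3 at day 2 its replicates held 0.572 and 1.47 CPM. Without the second of these, the library that stood apart, the difference from day 0 went from log2 0.81 to -0.03, and that from DM1 from 0.52 to -0.32.

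Ppargc1a (ENSMUSG00000029167, chromosome 5, 51454250 to 51567726) encodes PGC-1alpha, the coactivator that drives mitochondrial genes and answers to CREB in muscle and liver. It was highest in FCS with cocktail after 7 days, at 25.8 and 23.3 CPM. Day 0 held 1.61 and 1.33 CPM, DM1 2.64 and 3.00 CPM at day 2 and 3.10 and 3.59 CPM at day 7, and DM2 at day 2 2.28 and 3.13 CPM. DM3 held 5.86 and 6.30 CPM at day 2 and 4.48 and 4.76 CPM at day 7. All libraries of the media lay above day 0, and each of the 6 differences from day 0 was called, from 1.84-fold in DM2 at day 2 to 16.7-fold in DM2 at day 7.

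The order of the 2 cocktail media in Ppargc1a turned between the days. DM3 was 2.24-fold higher than DM2 at day 2 (log2 1.17 ± 0.17, edgeR adjusted p = 8.4e-04) and 5.31-fold lower at day 7 (log2 -2.41 ± 0.17, 2.3e-07). In DM2 Ppargc1a rose 9.05-fold between the days, against log2 0.24 ± 0.18 in DM1 and -0.40 ± 0.17 in DM3, neither of them called. At equal serum, DM3 was 2.15-fold higher than DM1 at day 2 (edgeR adjusted p = 3.8e-04) and 1.38-fold higher at day 7 (0.0416). The day 7 call was lost when any 1 of the 4 libraries was left out (edgeR adjusted p = 0.0579 to 0.206), and the day 2 calls of DM3 against DM2 and of DM2 against day 0 when only those groups were fitted (0.0617 and 0.0507).

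Pck1 (ENSMUSG00000027513, chromosome 2, 173153048 to 173159273), the cytosolic enzyme that commits to gluconeogenesis, had 1 count in 1 DM3 library of day 2 and 0 in the 13 others. A count of 0 allows up to 3 counts, or 0.102 to 0.132 CPM depending on the library. So no level above that limit was detected in any medium, with or without IBMX. The limit covers counting error only, since reads were amplified without molecular identifiers.

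Areg (ENSMUSG00000029378, chromosome 5, 91139599 to 91148432), the EGF receptor ligand amphiregulin, went down in all media. Day 0 held 30.1 and 26.1 CPM, the highest of the 14 libraries. DM1 fell to 11.3 and 14.1 CPM at day 2 and to 4.99 and 5.93 CPM at day 7. DM3 went lower, to 4.40 and 3.97 CPM at day 2 and 1.10 and 1.03 CPM at day 7. DM2 fell to 6.61 and 5.38 CPM at day 2 and stood at 19.3 and 17.9 CPM at day 7. Areg thus rose 3.11-fold between the days in DM2 (log2 1.64 ± 0.15, edgeR adjusted p = 2.7e-06), while it fell 2.33-fold in DM1 and 3.92-fold in DM3.

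Areg was lower in DM3 than in DM1 by 3.03-fold at day 2 (log2 -1.60 ± 0.16, edgeR adjusted p = 9.4e-06) and by 5.11-fold at day 7 (log2 -2.35 ± 0.18, 6.4e-07). DM3 lay 17.5-fold under DM2 at day 7 (log2 -4.13 ± 0.18, edgeR adjusted p = 3.7e-09). At day 2 that difference was 1.43-fold (edgeR adjusted p = 0.0433), a call lost in 7 of 13 alternatives. It was lost without either DM3 replicate or replicate 1 of DM2 (log2 -0.59 to -0.36) and without the 3 low-pseudogene libraries (log2 -0.44). It was also lost with DESeq2 (DESeq2 adjusted p = 0.0709), with a replicate block (edgeR adjusted p = 0.0533) and with only those groups fitted (0.237). Falls from day 0 ran from 1.51-fold in DM2 at day 7 to 26.3-fold in DM3 at day 7.

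**Figure D2:**
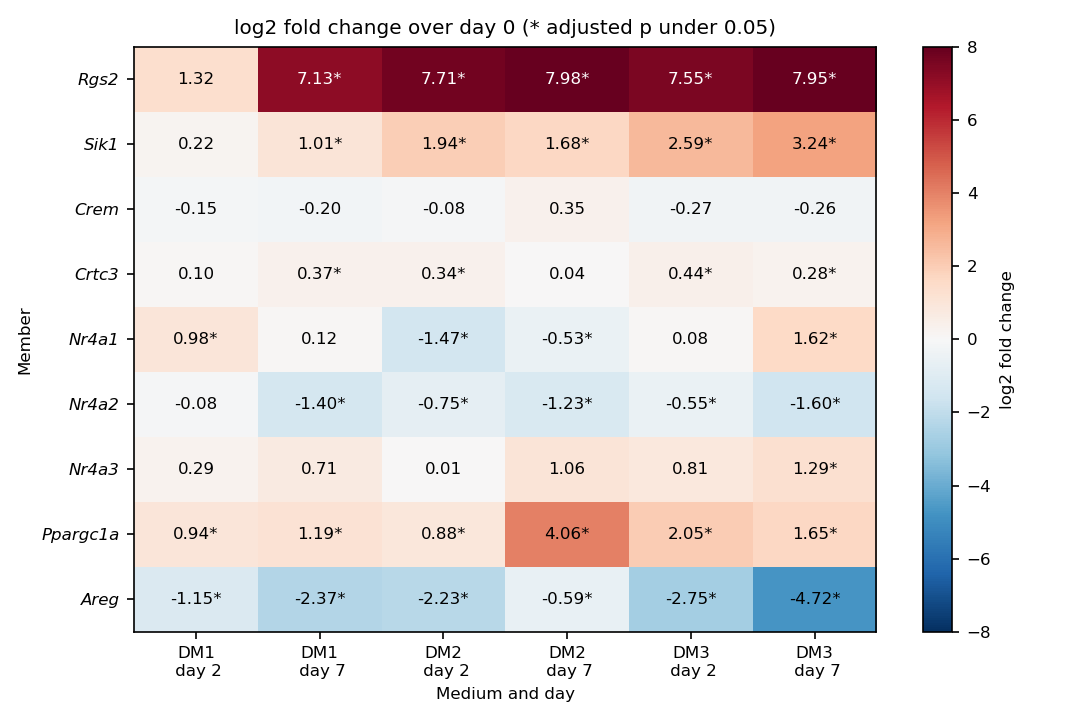
Log2 fold change over day 0 (colour and number) of 9 members (rows) in each medium and day (columns), where an asterisk marks an adjusted p under 0.05. Rgs2 is called in 5 of the 6 columns, Ppargc1a higher and Areg lower in all 6, and Crem in none; the 6 columns share the same 2 day 0 libraries.

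Read over all members, the counts of calls stood beside a large background of all genes tested. In DM1 at day 2, 3 of 9 members differed from day 0, where 29.7% of all genes did: 2 were higher (background 15.2%) and 1 lower (14.6%). At day 7, 6 were called beside 53.5% of all genes, 4 higher (27.7%) and 2 lower (25.8%). In DM2, 7 were called at day 2 beside 49.7%, 4 higher (23.5%) and 3 lower (26.2%), and 6 at day 7 beside 55.4%, 3 higher (24.5%) and 3 lower (30.9%). DM3 had 6 at day 2 beside 50.9%, 4 higher (25.5%) and 2 lower (25.4%). At day 7 DM3 had 8 beside 59%, 6 higher (28.9%) and 2 lower (30.1%). The 6 comparisons share their day 0 libraries, and each held members of both directions.

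The cocktail at equal serum, DM3 against DM1, gave 7 called members at day 2, when 37% of all genes were called. Rgs2, Sik1, Ppargc1a and Crtc3 were higher (background 17.6%), and Areg, Nr4a1 and Nr4a2 lower (19.4%). At day 7, 5 were called beside 47.7% of all genes, with Sik1, Nr4a1, Rgs2 and Ppargc1a higher (22.7%) and Areg lower (25.1%). The members' median difference was log2 0.33 at day 2 and 0.47 at day 7, beside -0.02 and 0 over all genes. Each median is the value of a single gene, Crtc3 at day 2 and Ppargc1a at day 7, and so is no measure of a shift of the set. Those calls held in 9 of 13 and 3 of 12 alternatives. The difference itself changed between the days for 4 members, beside 34.9% of all genes: upward for Nr4a1 (background 16.3%) and downward for Rgs2, Areg and Crtc3 (18.7%). Under library totals alone, 27.3% of the genes called at day 7 were higher, against 47.5% here, and the median of all genes shifted to log2 -0.23, with Sik1, Nr4a1, Rgs2 and Areg called as before and Ppargc1a not (edgeR adjusted p = 0.295). That scaling also called Nr4a2 (log2 -0.44, 0.0202) and Crtc3 (log2 -0.33, 0.00569) lower, which made 3 members higher and 3 lower.

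**Figure D3:**
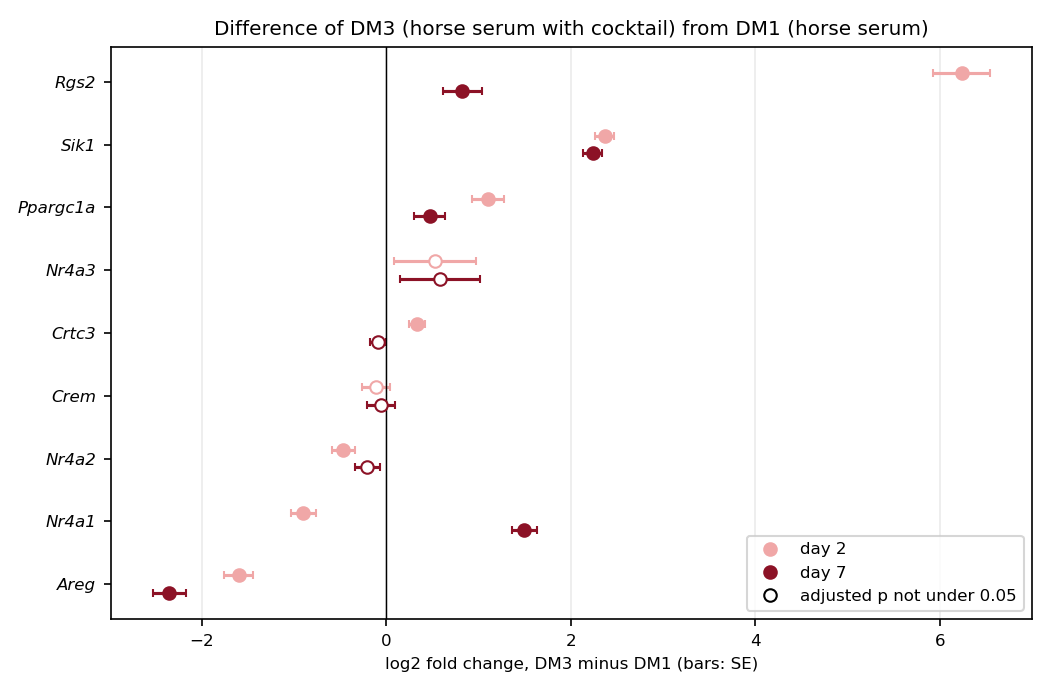
Log2 fold change of DM3 minus DM1 (x axis, bars are SE) for 9 members (rows) at day 2 (light) and day 7 (dark), with open points where the adjusted p is not under 0.05. Rgs2 drops from 6.24 to 0.82, Nr4a1 crosses from -0.90 to 1.49, and Sik1 stays at 2.37 and 2.24.

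Serum under the cocktail (DM3 against DM2) gave 4 called members at day 2 beside 16.3% of all genes, with Nr4a1, Ppargc1a and Sik1 higher (background 9.98%) and Areg lower (6.31%). Of these, Nr4a1 was called under each alternative. At day 7, 7 were called beside 52.7% of all genes: Nr4a1, Sik1 and Crtc3 were higher in DM3 (27.5%), and Areg, Ppargc1a, Crem and Nr4a2 lower (25.2%). Day 7 was also set against day 2 within each medium. In DM1, 6 members changed beside 34.3% of all genes, 3 higher (16.8%) and 3 lower (17.5%). In DM2, 7 changed beside 54.8%, 4 higher (25.4%) and 3 lower (29.4%), and in DM3, 4 beside 47.9%, 2 higher (22.6%) and 2 lower (25.3%). Nr4a1 fell in DM1 (log2 -0.86 ± 0.13) and rose in DM2 (0.94 ± 0.14) and DM3 (1.54 ± 0.13) over that time, whereas Nr4a2 fell in all 3 media. The comparisons of DM3 with DM1 and with DM2 share the DM3 libraries.

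Per kb of exon, the members differ widely in level. At day 0 Areg led with 23.1 CPM per kb, followed by Sik1 with 12, Nr4a2 with 4.55 and Nr4a1 with 3.55, and Rgs2 was lowest of the 9 tested with 0.0762. In DM3 at day 7 Sik1 led with 114 CPM per kb, ahead of Rgs2 with 19.2 and Nr4a1 with 10.9, while Areg stood at 0.875. Sik1 led in each of the 6 groups after day 0.

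Group means of the members tracked each other only in part, a description over 7 groups that share libraries and scaling. Pearson's r of log2 levels was 0.84 for Rgs2 with Sik1, -0.82 for Rgs2 with Nr4a2, -0.83 for Sik1 with Areg, and -0.03 for Ppargc1a with Areg. Within the NR4A family it was -0.13 for Nr4a1 with Nr4a2 and -0.81 for Nr4a2 with Nr4a3. The latter value rests on few counts, since Nr4a3 had 12 to 41 a library. Among all genes tested, the patterns closest to Rgs2 were those of Trp53inp1 (r = 0.996), Slc25a30 (0.995) and 4930486L24Rik (0.992), and closest to Sik1 those of Saa3 (0.989), Fam53b (0.989) and Tob1 (0.988). For Ppargc1a they were Atf7 (0.992), Npc1 (0.989) and Sh3tc2 (0.988), for Areg Golga1 (0.994), Mettl17 (0.990) and Tbc1d9 (0.989), and for Nr4a1 Ppm1f (0.960), Nptx1 (0.960) and Acsl6 (0.959). The closest gene was Arhgef12 for Crtc3 (0.997), Mrpl58 for Crem (0.987), Zranb3 for Nr4a2 (0.989) and Tm9sf4 for Nr4a3 (0.985). These closest genes have the highest r of all genes tested over only 7 group means, so the search itself favours high values.

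The rest of the pathway was followed in 10 lists of 103 genes without the members, of which 81 could be tested. In DM3 against DM1, 18 were higher and 21 lower at day 2, and 24 higher and 27 lower at day 7, with list medians of log2 -0.05 and 0.02. Of the 81, 48.1% were thus called at day 2 and 63% at day 7, beside 37% and 47.7% of all genes tested. By direction, 22.2% were higher and 25.9% lower at day 2 (17.6% and 19.4% of all genes), and 29.6% and 33.3% at day 7 (22.7% and 25.1%). These shares of all genes are the background for each single list as well. Among 12 tested G proteins and Gs-coupled receptors, 3 were higher and 3 lower at day 2, and 2 and 4 at day 7. The receptor Calcrl rose 1.90-fold and 4.09-fold, and the prostaglandin receptor Ptger2 was 5.60-fold and 8.79-fold lower. Ptger2 was near the limit of detection in DM3, at 0.102 against 0.582 CPM at day 2 and 0.125 against 1.14 CPM at day 7. Over all groups, its highest library with IBMX held 2.63 CPM and its highest without 1.17 CPM. The adenosine receptor Adora2a fell from 43 to 3 counts at day 2, a ratio of 14.4-fold with an exact 95% counting interval of 4.602 to 72.45. Of 6 adenylyl cyclases 0 were higher, 2 lower at day 2 and 4 lower at day 7. Some of these had very low levels. Adcy3 held 1 against 12 counts at day 7. Adcy8 stood at 0.200 against 0.608 CPM at day 2 and 0.272 against 1.08 CPM at day 7. Over all groups, the highest Adcy8 library with IBMX held 4.18 CPM and the highest without 1.32 CPM. Adcy7 fell from 443 to 219 CPM at day 2 and from 291 to 113 CPM at day 7, and its 8 libraries with IBMX (105 to 232 CPM) all lay under the 6 without (260.1 to 443 CPM).

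Further down, 3 of 10 genes of protein kinase A, its inhibitors and the exchange factor EPAC were higher and 2 lower at day 2, and 5 and 1 at day 7. The regulatory subunit Prkar2b stood at 392 against 190.5 CPM at day 2, the catalytic subunit Prkaca at 312 against 151 CPM at day 7, and the kinase inhibitor Pkia at 202 against 51.8 CPM at day 7, after a small fall at day 2 (log2 -0.31 ± 0.10). Rapgef3, which encodes EPAC1, was lower on both days, 3.46-fold and 8.27-fold. In the CREB family and its coactivators, 1 of 7 was higher and 1 lower at day 2, and 1 and 3 at day 7, when Creb1 fell by 0.55 and Crebbp by 0.53 on the log2 scale. Of 6 salt-inducible kinases and their partners, the deacetylase gene Hdac4 rose 2.17-fold at day 2. At day 7 the kinase Stk11 (Lkb1) was higher and Hdac7, Hdac5 and Sik3 lower, Hdac7 by 3.34-fold.

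**Figure D4:**
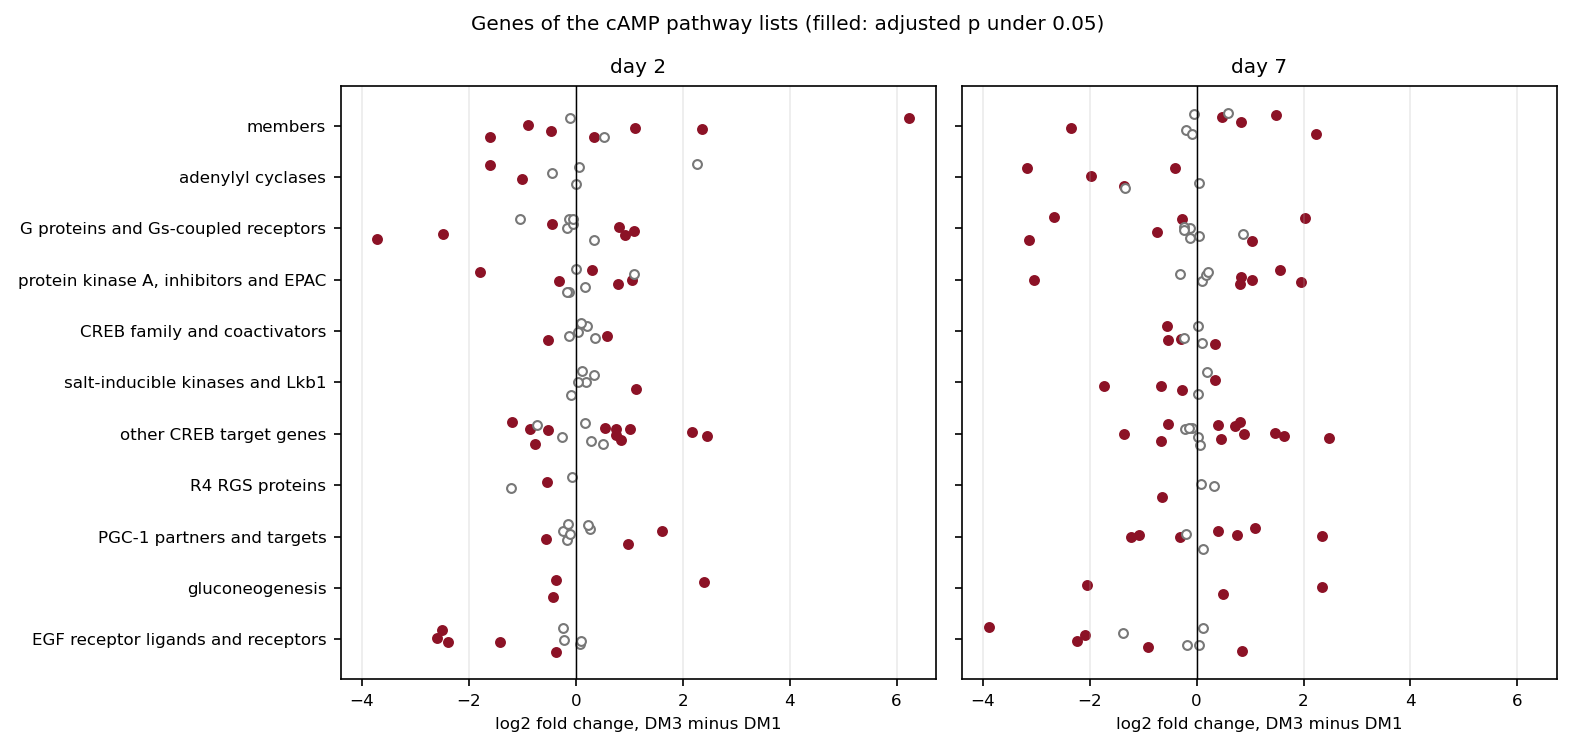
Log2 fold change of DM3 minus DM1 (x axis) at day 2 (left) and day 7 (right) for each tested gene of the members and of 10 pathway lists (rows, points spread vertically so that they can be told apart), filled where the adjusted p is under 0.05. Points of most lists lie on both sides of 0; among EGF receptor ligands and receptors 5 of 9 are lower and 0 higher at day 2.

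Among 16 other CREB targets, 7 were higher and 4 lower at day 2, and 8 and 3 at day 7, with list medians of log2 0.39 and 0.23. The phosphodiesterase Pde4b stood at 257 against 56.9 CPM at day 2 and 349 against 62.5 CPM at day 7. The clock gene Per1 stood at 189 against 34.5 CPM at day 2. Over all groups, Per1 overlapped between libraries with IBMX (102 to 208 CPM) and those without (25.1 to 188 CPM). Egr1, an immediate-early factor, was 2.28-fold lower at day 2, and the neurotrophin Bdnf 1.82-fold and 2.58-fold lower. Fos resembled Nr4a1 in the sign of DM3 minus DM1: it was 1.71-fold lower at day 2 and 3.10-fold higher at day 7. From day 2 to day 7, mean Fos went from 5.998 to 5.697 CPM in DM3 and from 10.26 to 1.826 CPM in DM1. Mean Nr4a1 went from 13.15 to 38.17 CPM in DM3 and from 24.57 to 13.54 CPM in DM1, so the levels in DM3 were not alike. In the IBMX split, Pde4b and Pde4d joined Sik1 above, and Bdnf and Fosb lay below.

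Of the lists around single members, 1 of 3 tested relatives of Rgs2 was called, Rgs3, which was lower on both days (1.45-fold and 1.56-fold). In the PGC-1 list of 9, 2 were higher and 1 lower at day 2, and 4 and 3 at day 7. Ppargc1b rose 1.96-fold and 2.14-fold, and Pdk4, which holds back glucose oxidation, rose 3.05-fold at day 2 and was 2.35-fold lower at day 7. Of 3 gluconeogenic genes tested beside Pck1, pyruvate carboxylase Pcx rose 5.28-fold and 5.11-fold, while the mitochondrial Pck2 fell from 115 to 88.6 CPM and from 233 to 56.4 CPM. Of 9 other EGF receptor ligands and receptors, 5 were lower and 0 higher at day 2, and 4 and 1 at day 7. Epiregulin Ereg fell with Areg, 5.65-fold and 4.27-fold, and so did betacellulin Btc, 6.04-fold and 14.8-fold. Heparin-binding EGF-like factor Hbegf was 5.27-fold lower at day 2, and in all 8 libraries with IBMX (7.77 to 11.0 CPM) it lay below the 6 without (16.1 to 54.6 CPM).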

How the data were processed

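The libraries held poly(A) RNA in strand-specific form with single-end reads of 50 bases, per the labels' protocols. The authors deposited RSEM 1.2.31 expected counts (estimated counts per gene, not normalized) from STAR 2.5.1b alignments to GRCm38.p5, per the submitters' processing notes. Whether counting used strand was not given in the sources used here. The software was R 4.3.3, edgeR 4.0.16 and limma 3.58.1. Rounded expected counts went into edgeR: filterByExpr by group kept 15973 of 49671 genes, libraries were TMM-scaled, and all 14 libraries entered 1 quasi-likelihood model of 7 groups with 7 residual degrees of freedom, without a replicate block. There were 14 comparisons, each with Benjamini-Hochberg adjusted p-values. The SE is the absolute log2 fold change over the square root of F. CPM uses TMM-scaled totals. With n = 2 libraries a group, ± SE and 95% intervals come from the model of all 14 libraries. The intervals use the 7 residual degrees of freedom and can be wider than the test's p-value implies. For Sik1 in DM1 at day 2 over day 0, the interval was log2 -0.010 to 0.455, beside an unadjusted edgeR p of 0.0435. Gene positions are from Gencode vM21. The scripts were tested on simulated data. The members and lists were chosen with earlier results of these data known. All members were named, with up to 3 called genes of each list in each direction by size of change, and up to 3 genes closest to a member in group means. DESeq2 1.42.0, other scalings, filters and fits, and leaving out libraries were alternatives.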

Additional observations from a re-analysis of the deposited data

Results flagged for a closer look

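For 4 members the difference between DM3 and DM1 itself changed between day 2 and day 7 by edgeR's quasi-likelihood test of the interaction, which 34.9% of all genes tested passed. For Rgs2 the change was log2 -5.411 (adjusted p = 5.6e-06): it stood at 52.8 ± 5.55 against 0.701 ± 0.196 CPM (SD, n = 2) at day 2 and at 69.6 ± 3.96 against 39.2 ± 14.2 CPM at day 7. For Nr4a1 it was log2 2.394 (adjusted p = 3.5e-06), with 13.2 ± 1.91 against 24.6 ± 2.24 CPM at day 2 and 38.2 ± 1.13 against 13.5 ± 0.908 CPM at day 7. For Crtc3 it was log2 -0.4221 (adjusted p = 0.0202) and for Areg log2 -0.7532 (adjusted p = 0.0265). The Crtc3 change lost its call in 6 of 17 alternatives and the Areg change in 8 of 17. In the fit of only these groups, both were lost (edgeR adjusted p = 0.0583 and 0.0530). Areg was also lost with DESeq2 (DESeq2 adjusted p = 0.106). Without the 3 low-pseudogene libraries the changes were log2 -0.36 for Crtc3 and -0.66 for Areg. The changes of Rgs2 and Nr4a1 were called under each alternative run.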

How the results depend on the processing

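Of 126 member differences, 80 were called, and 59 of these kept their call under each alternative. None of the 80 changed sign. Of the 46 not called, 16 were called under at least 1 alternative. The number of called members fell from 5 to 3 for DM3 against DM1 at day 7, from 4 to 1 for DM3 against DM2 at day 2 and from 4 to 2 for the change of the DM3 minus DM1 difference when only the groups compared were fitted, and for the last also to 2 without the 3 libraries of low pseudogene share. With 1 library left out those counts were 3 to 4, 3 to 4 and 2 to 4, and 4 to 5 instead of 7 for day 7 against day 2 in DM2. A group left with 1 library is assumed to vary like the others.

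Sign changes were all among the 46 uncalled differences, and the cause was not tested. Without the 3 libraries, Nr4a3 went to log2 -0.2327 (DM1 at day 2 over day 0), -0.3548 (DM2 at day 2), -0.3892 (DM3 at day 2), -0.1565 (DM3 minus DM1) and -0.03441 (DM3 minus DM2), Nr4a1 to -0.005817 in DM3 at day 2, Crtc3 to -2.872e-05 for DM3 minus DM2 at day 2 and Crem to -0.02241 between days in DM3. Fitting only 2 groups gave Nr4a3 -0.005849 in DM2 at day 2. Library totals alone gave Crtc3 -0.1843 in DM2 at day 7, Crem -0.1866 between days in DM3, and -0.1127 (Crem) and -0.1044 (Nr4a3) for the change of the DM3 minus DM1 difference. Upper-quartile factors gave Crem 0.01702 in DM2 at day 2, -0.0341 between days in DM3, and -0.01868 (Crem) and -0.01459 (Nr4a3) for that change.

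With 1 library left out, ranges that crossed 0 were, over day 0, Nr4a2 -0.197 to 0.03766 and Nr4a3 -0.06678 to 0.7651 in DM1 at day 2, Crem -0.4707 to 0.01952 in DM1 at day 7, Nr4a3 -0.3531 to 0.4788 in DM2 at day 2, and Nr4a1 -0.07958 to 0.2175 and Nr4a3 -0.03318 to 1.318 in DM3 at day 2. Between media they were Nr4a3 -0.3207 to 1.031 (DM3 minus DM1, day 2), Crem -0.2757 to 0.2148 (day 7), Nr4a3 -0.03552 to 1.317 and Crtc3 -0.0007595 to 0.1903 (DM3 minus DM2, day 2) and Rgs2 -0.141 to 0.1092 (day 7). Between days they were Crem -0.3154 to 0.1745 in DM1, Crem -0.02804 to 0.05625 and Nr4a3 -0.02951 to 1.323 in DM3, and Crem -0.161 to 0.3297 and Nr4a3 -0.4458 to 0.9062 for the change of the DM3 minus DM1 difference.

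Replicate numbers did not pair the samples (correlations of same-numbered deviations from -0.629 to 0.518 over 21 pairs of groups, 2 of them over 0.1). The largest in size lay among day 0, DM1 at day 2 and DM3 at day 2 (0.518, -0.629 and -0.432). These groups hold the 3 low-pseudogene libraries, which are replicates 1, 1 and 2. Whether that share lies behind the correlations was not tested. With the replicate block, 3 of the member calls differed: Rgs2 was called in DM1 at day 2 (log2 1.321, edgeR adjusted p = 0.00819) and between days in DM3 (0.4044, 0.0260), and Areg was not for DM3 minus DM2 at day 2 (-0.5169, 0.0533).

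Over all genes, the calls fell from 4750 to 2134 for DM1 at day 2 over day 0 and from 5908 to 3367 for DM3 against DM1 at day 2 without the 3 libraries, from 5482 to 3631 for day 7 against day 2 in DM1 without replicate 1 of day 2, and ranged from 494 (only those groups fitted) to 4130 (without DM3 replicate 1), against 2602, for DM3 against DM2 at day 2. Under library totals alone the percent of calls that were higher went from 44.3 to 30.3 (DM2 at day 7 over day 0), 48.9 to 37 (DM3 at day 7), 61.3 to 50.8 (DM3 against DM2, day 2), 46.4 to 28.9 and 47.3 to 30.8 (between days in DM2 and DM3) and 46.5 to 30.5 (change of the DM3 minus DM1 difference). Nr4a3 had 12 to 41 counts a library and Pck1 1 count in all, and how depth bears on the calls was not tested.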

Other observations

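Across all 7 groups, the libraries with and without IBMX did not overlap for 9 of the 90 members and pathway genes tested. With IBMX 4 of them were higher and 5 lower, or 4.44% and 5.56%, beside 1.92% and 3.4% of all genes tested. The genes named here were chosen after their values were seen. Pcx, the anaplerotic enzyme of gluconeogenesis, stood at 22.2 to 73.3 CPM in the 8 libraries with IBMX and 5.81 to 13.4 CPM in the 6 without. Pde4d stood at 36.7 to 48.3 CPM against 21.9 to 30.7 CPM. Fosb stood at 0.156 to 1.56 CPM against 1.60 to 3.30 CPM, and Btc at 0.254 to 3.09 CPM against 3.99 to 10.7 CPM. The media that hold IBMX also hold insulin, dexamethasone and rosiglitazone, so the agents cannot be told apart.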
